A study of Mus musculus with 6 samples.

Results

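The extracellular matrix and integrin genes described here are the rows of the deposited expression table for collagen chains, laminin chains, integrin alpha and beta chains and 12 further matrix genes (Fn1, Sparc, Dcn, Bgn, Npnt, Tnc, Thbs1, Fbn1, Nid1, Hspg2, Lox and Loxl2). They were chosen by gene symbol, with earlier results of these data known, and 81 of the 16426 genes in the table matched. Of these, 39 had at least 1 FPKM (a fragment count corrected for transcript length and library size) in at least 3 libraries and were tested, among 10804 tested genes in all. The RNA came from the murine mammary carcinoma line 4T1-LM3. In 3 samples the cells had received conditioned medium (CM) from matrix fibroblasts (MFs) described as Tdo2high, the Tdo2high MFs CM group, and in 3 samples a control medium, the Control CM group. The labels give no cell source for the control medium, no length of exposure and no mention of separate cultures, so p-values measure the spread between these samples only, which may be technical. No group is labelled as having received medium from fibroblasts low in Tdo2, so an effect of Tdo2 and of other differences between the media cannot be told apart.

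The extracellular matrix is the protein network that cells secrete and stand on. Basement membranes are sheets built from laminin trimers and type IV collagen, tied together by nidogen and perlecan, whereas interstitial matrix is rich in fibrillar collagens, fibronectin and small proteoglycans. Cells hold on to both through integrins, membrane receptors made of 1 alpha and 1 beta chain, and the pair of chains decides which ligand is bound. In mammary tumours, integrins that contain the beta1 or beta3 chain are known for their part in adhesion, survival signalling and spread. The comparison asked how these genes stood in the carcinoma cells after Tdo2high MFs CM, relative to Control CM.

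Of the 39 tested genes, 6 rose and 5 fell at an adjusted p under 0.05 (limma, Benjamini-Hochberg over all tested genes). That is 28.2% of them, against 7.41% of all tested genes. The set was chosen with earlier results of these data known, so these shares describe it and do not test it. Separately, 15.4% rose, against 3.35% of all tested genes, and 12.8% fell, against 4.06%. The integrin subunits Itga8, Itga1, Itgb3 and Itgb2, the integrin ligand nephronectin (Npnt) and the collagen Col12a1 rose. Decorin (Dcn), fibronectin (Fn1), the collagen Col8a1, Sparc and the integrin subunit Itga3 fell. Of the genes that passed, Npnt, Dcn, Fn1 and Sparc had entered the set by name, and the others as members of a gene family. Matrix and integrin genes were more abundant than most genes, with a median of 37.2 FPKM over the 6 libraries, against 14.2 FPKM for all tested genes. Among genes with a mean of at least 10 FPKM, 31.2% of 32 matrix and integrin genes passed the test, against 9.43% of 6615 genes. At that level 15.6% of them rose, against 4.4% of all such genes, and 15.6% fell, against 5.03%. The changes were modest: the median size of the log2 fold change was 0.10, against 0.06 for all tested genes. Its signed median was -0.06, against -0.01 for all tested genes, with 15 positive and 24 negative values. All tested genes had 4709 positive and 6095 negative values.

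**Figure D1:**
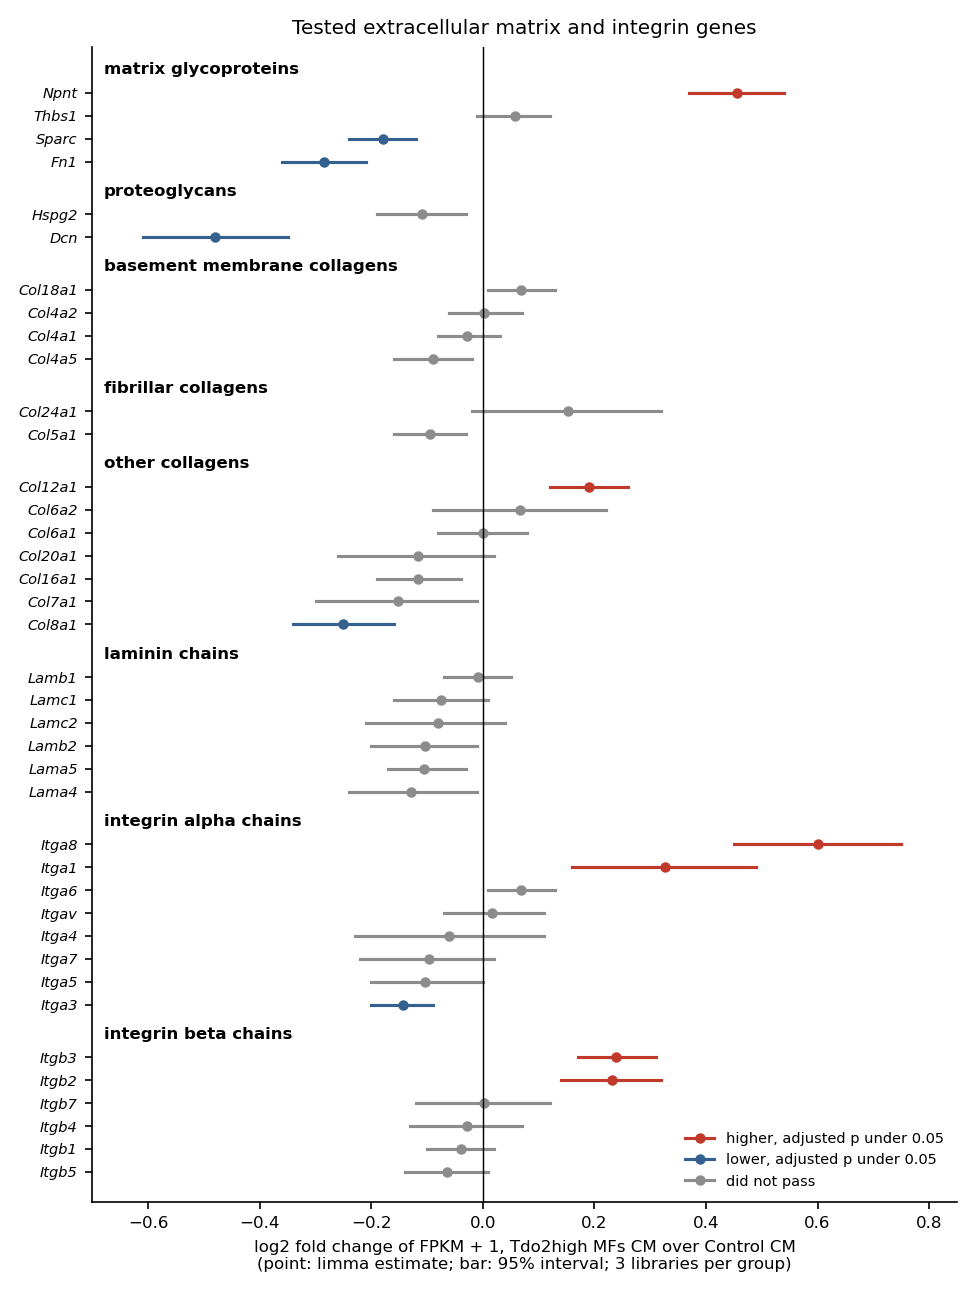
Log2 fold change of FPKM + 1 (x axis) of the 39 tested extracellular matrix and integrin genes, Tdo2high MFs CM over Control CM, grouped by role. Points are limma estimates, bars are 95% intervals from 3 libraries per group, and colours mark genes that passed the test; Itga8 at 0.60 and Dcn at -0.48 stand at the ends.

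The FPKM of the 3 libraries of a group did not overlap those of the other group for 25 of the 39 genes (64.1%, against 29.2% of all tested genes). In 8 of these genes the Tdo2high MFs CM libraries were all above (20.5%, against 11.6% of all tested genes). In 17 they were all below (43.6%, against 17.5%). All 39 tested genes reached 1 FPKM in each of the 6 libraries, so none entered the test through 1 group alone. The tested gene nearest the filter was Col6a2, with 1.62, 1.85 and 1.84 FPKM in Tdo2high MFs CM libraries and 1.63, 1.64 and 1.66 FPKM in Control CM libraries. By the third-highest library, on which the filter turns, the untested gene nearest to it was Col4a6, a minor type IV collagen chain. It had 0.89, 0.94 and 0.96 FPKM in Tdo2high MFs CM libraries and 0.84, 0.74 and 0.93 FPKM in Control CM libraries. Nid1, which encodes the basement membrane linker nidogen 1, had 0.73, 0.72 and 0.83 FPKM in Tdo2high MFs CM libraries and 1.02, 0.91 and 1.03 FPKM in Control CM libraries.

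The libraries themselves were alike. FPKM summed to between 438603 and 447415 per library, read depth is unknown, and correlation across genes, which are not independent replicates, gave a Pearson's r of log2(FPKM + 1) of 0.996 between groups and of 0.997 to 0.998 within them. The luminal keratins Krt8 and Krt18 were abundant, at means of 276.7 and 377.9 FPKM with Tdo2high MFs CM and 272.3 and 355.7 FPKM with Control CM. Epcam and Cdh1, which mark epithelial cells, did not exceed 0.11 and 0.02 FPKM. In such bulk RNA, fewer cells of a kind and less RNA per cell cannot be told apart.

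**Figure D2:**
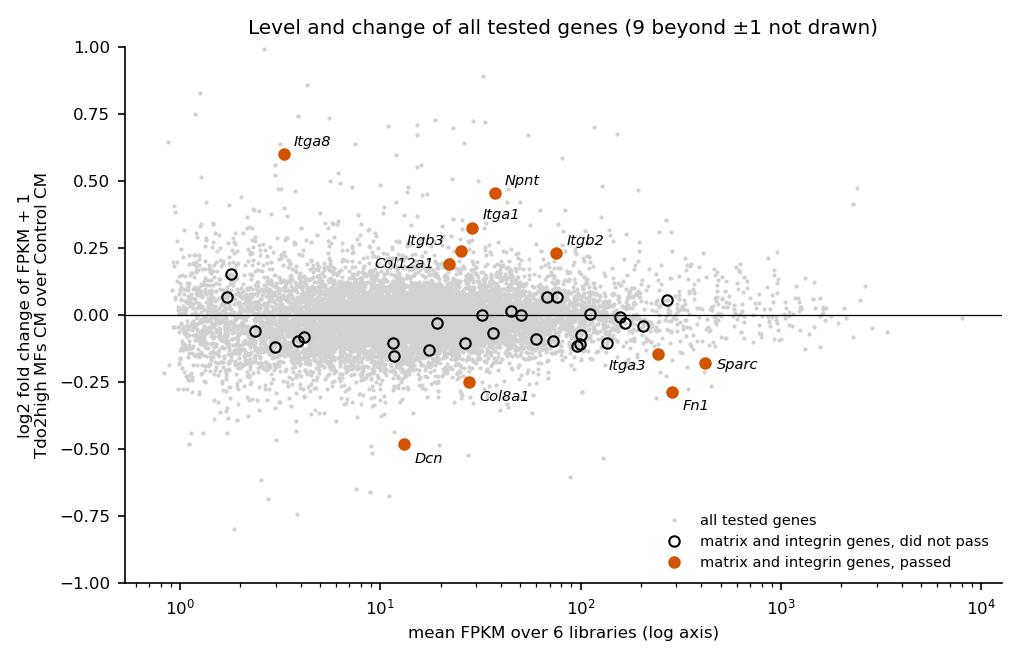
Mean FPKM over 6 libraries (x, log axis) against the log2 fold change of FPKM + 1, Tdo2high MFs CM over Control CM (y), for all 10804 tested genes (grey; 9 beyond the drawn range), with matrix and integrin genes that passed (filled) or did not pass (open). Itga8 had the lowest level among the matrix and integrin genes that passed, and Sparc the highest.

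The largest rises among the 39 genes were those of Itga8 and Npnt, a receptor subunit and its ligand. Npnt encodes nephronectin, a basement membrane glycoprotein with an RGD integrin-binding motif, and Itga8 the alpha8 chain, which pairs with beta1 and binds nephronectin, a pair known in mice from kidney development. RefSeq (GRCm38.p6) lists promoter windows, from 250 bases before to 50 bases after a transcript's start, for 27 of the 39 genes and for 6 of the 11 that passed. The windows of the pair with the largest rises are printed 5′ to 3′ on the gene's own strand, in lower case, with Npnt given at both of its starts. Capitals mark matches to any of the motifs searched on both strands.
Npnt, upstream start, chr3:132950242-132950541, minus strand: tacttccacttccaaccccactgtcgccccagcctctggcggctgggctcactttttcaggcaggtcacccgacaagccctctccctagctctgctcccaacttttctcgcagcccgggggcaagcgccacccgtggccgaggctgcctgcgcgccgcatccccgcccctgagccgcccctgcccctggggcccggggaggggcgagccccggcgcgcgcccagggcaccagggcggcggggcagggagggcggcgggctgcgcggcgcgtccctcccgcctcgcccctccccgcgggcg
Npnt, downstream start, chr3:132949765-132950064, minus strand: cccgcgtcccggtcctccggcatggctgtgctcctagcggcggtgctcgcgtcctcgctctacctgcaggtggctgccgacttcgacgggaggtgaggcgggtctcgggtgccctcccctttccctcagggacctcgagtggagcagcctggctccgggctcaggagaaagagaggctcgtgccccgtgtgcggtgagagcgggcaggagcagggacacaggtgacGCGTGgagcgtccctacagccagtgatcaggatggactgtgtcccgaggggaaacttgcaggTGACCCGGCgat
Itga8, chr2:12301895-12302194, minus strand: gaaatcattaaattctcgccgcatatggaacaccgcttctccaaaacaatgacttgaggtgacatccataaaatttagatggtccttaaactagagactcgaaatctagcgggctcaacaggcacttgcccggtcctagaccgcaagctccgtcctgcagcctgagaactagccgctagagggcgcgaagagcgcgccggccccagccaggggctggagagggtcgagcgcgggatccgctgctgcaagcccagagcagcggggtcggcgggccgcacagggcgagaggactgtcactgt

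The motifs were the antioxidant response element core TGACNNNGC, the dioxin response element core GCGTG, the AP-1 site TGANTCA, the TATA box TATAAA and the TEAD site GGAATG. The downstream Npnt window held GCGTG, from 24 to 20 bases before the start, and TGACCCGGC, which fits the antioxidant response element core, from 38 bases after it. These matches did not overlap each other. Of all 32851 windows, 32.4% held a dioxin response element core and 12.4% an antioxidant response element core. The upstream Npnt window and the Itga8 window held none of the 5 motifs. Among the other windows of genes that passed, 1 of the 2 Itga3 windows held an AP-1 site, a motif found in 7.81% of all windows. A match is a description of the letters and not a measured site.

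Npnt had 43.44, 44.60 and 41.43 FPKM in Tdo2high MFs CM libraries, against 31.91, 29.99 and 31.66 FPKM in Control CM libraries. The lowest Tdo2high MFs CM library stood well above the highest Control CM library. The means were 43.2 ± 1.6 FPKM with Tdo2high MFs CM and 31.2 ± 1.04 FPKM with Control CM (SD, n = 3 each, as in the means of other genes), a log2 fold change of 0.46 ± 0.04 (SE) with limma adjusted p = 9.97e-05. The gene lies on chromosome 3 from 132881745 to 132950291, and a small nuclear RNA gene lies within its span.

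Itga8 had 4.16, 3.95 and 4.39 FPKM in Tdo2high MFs CM libraries, against 2.52, 2.22 and 2.49 FPKM in Control CM libraries. The groups did not overlap, and the mean was 1.73 times as high with Tdo2high MFs CM. Its log2 fold change of FPKM + 1 was 0.60 ± 0.07 (SE; 95% interval 0.45 to 0.75; limma adjusted p = 0.000694), a scale that understates changes at such low levels. Itga8 remained a minor alpha chain, at 1.02% of the summed alpha chain FPKM with Tdo2high MFs CM and 0.569% with Control CM. It lies on chromosome 2 from 12106632 to 12301985 and overlaps the span of the long noncoding RNA gene E030013I19Rik, so reads of both genes may not be separable. Its partner chain Itgb1 was abundant with either medium and did not pass (log2 fold change -0.04, 95% interval -0.10 to 0.02, limma adjusted p = 0.406).

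**Figure D3:**
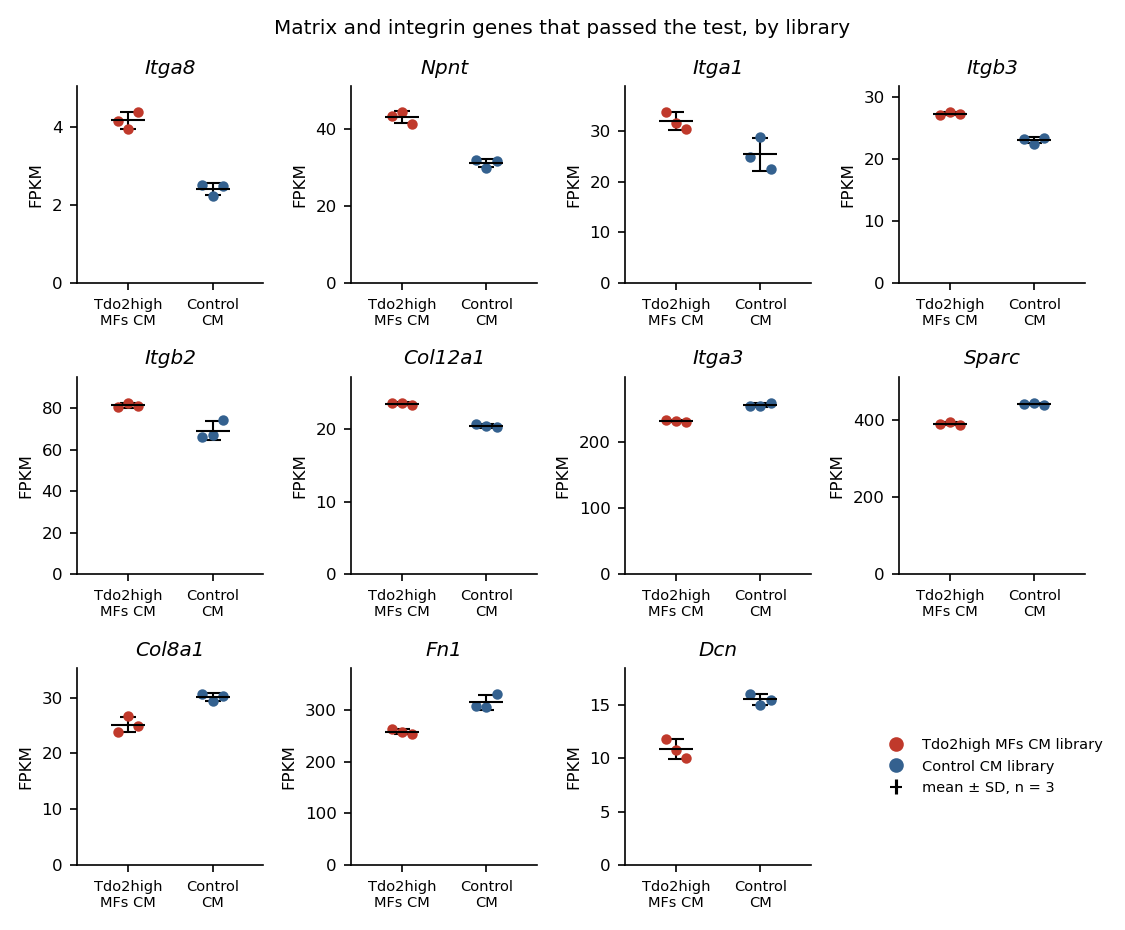
FPKM (y, from 0) of each library for the 11 matrix and integrin genes that passed the test, with Tdo2high MFs CM on the left and Control CM on the right; black marks are the mean ± SD of 3 libraries. In none of the 11 do the groups overlap, and Itga1 has the widest spread among Control CM libraries, from 22.44 to 28.83 FPKM.

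Of 15 integrin alpha chains in the table, 8 were tested, 2 rose, 1 fell and 5 did not pass. Among all tested genes 3.35% rose and 4.06% fell. Itga3, whose product pairs with beta1 as a laminin receptor, was the most abundant. It had 234.61, 231.83 and 231.09 FPKM in Tdo2high MFs CM libraries, against 254.97, 255.15 and 260.36 FPKM in Control CM libraries. All 3 Tdo2high MFs CM values were lower, in a narrow range, and the log2 fold change was -0.14 ± 0.03 (SE, limma adjusted p = 0.00987). That call ended with a correction for GC content and transcript length that was added after the data were seen (-0.09, limma adjusted p = 0.0522). Itga3 made up 56.7% of the summed alpha chain FPKM with Tdo2high MFs CM and 60.7% with Control CM.

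The second most abundant alpha chain was Itga6, another laminin-binding chain, which pairs with beta1 or beta4. It averaged 77.7 ± 0.586 FPKM with Tdo2high MFs CM and 74.1 ± 1.51 FPKM with Control CM, and did not pass (log2 fold change 0.07, 95% interval 0.01 to 0.13, limma adjusted p = 0.167). The ratio of Itga6 to Itga3 was 0.332, 0.337 and 0.334 in Tdo2high MFs CM libraries, against 0.284, 0.292 and 0.290 in Control CM libraries. The laminin-binding chain Itga7 averaged 3.70 FPKM with Tdo2high MFs CM and 4.03 FPKM with Control CM and did not pass (limma adjusted p = 0.309).

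Itga1 encodes the alpha1 chain, which with beta1 binds collagens, type IV among them. Its FPKM was 33.77, 31.56 and 30.41 in Tdo2high MFs CM libraries, against 24.83, 28.83 and 22.44 in Control CM libraries. The groups came close, with 30.41 as the lowest value of the Tdo2high MFs CM group and 28.83 as the highest of the Control CM group. The log2 fold change was 0.33 ± 0.08 (SE, limma adjusted p = 0.0294). This call depended on single libraries. Leaving out Tdo2high MFs CM replicate 1 or 2, or Control CM replicate 1 or 3, gave limma adjusted p = 0.0917, 0.0782, 0.0849 and 0.0695. Without a filter on low values it was 0.119 and without an intensity trend 0.0759. The protein-coding gene Pelo, at a mean of 7.2 FPKM, lies within the span of Itga1, and whether reads were counted by strand is not given in the sources used here. Itga2, Itga10 and Itga11, the other collagen-binding alpha chains, did not exceed 0.64 FPKM in any library.

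Of the alpha chains that bind the RGD motif or fibronectin, Itgav had the highest level. It averaged 45.2 ± 2.06 FPKM with Tdo2high MFs CM and 44.6 ± 1.55 FPKM with Control CM, and the groups overlapped (log2 fold change 0.02, 95% interval -0.07 to 0.11). Itga5, the alpha chain of the classical fibronectin receptor, averaged 11.1 ± 0.364 FPKM with Tdo2high MFs CM and 12.01 ± 0.523 FPKM with Control CM and did not pass (-0.10, 95% interval -0.20 to 0.00, limma adjusted p = 0.205; corrected for GC content and length, -0.05). Itga4, which binds fibronectin and VCAM1, averaged 2.29 FPKM with Tdo2high MFs CM and 2.44 FPKM with Control CM, and did not pass either. The platelet chain Itga2b stayed at or under 0.72 FPKM, and Itga9, Itgae and Itgam at or under 0.17 FPKM.

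**Figure D4:**
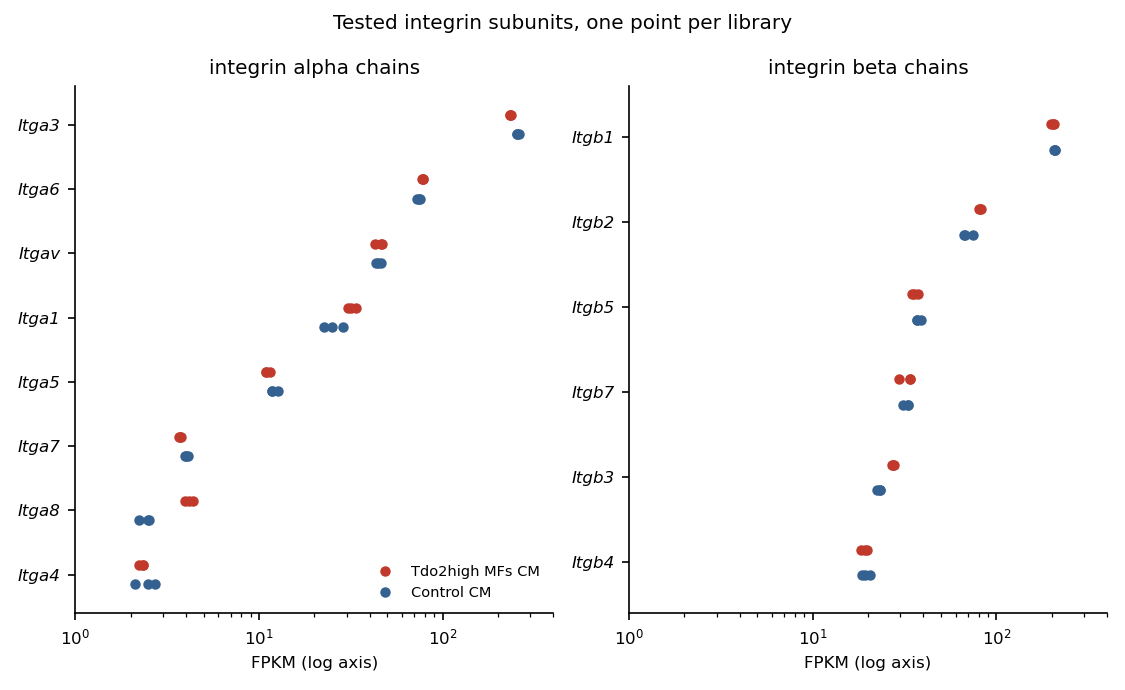
FPKM (x, log axis) of the 8 tested integrin alpha chains and 6 tested beta chains, ordered by level, with 1 point per library; Tdo2high MFs CM is drawn above Control CM for each gene. Itga3 and Itgb1 lead both panels, and Itga8, Itga1, Itgb2 and Itgb3 are shifted to the right in Tdo2high MFs CM.

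Of 8 beta chains in the table, 6 were tested and 2 rose, against 3.35% of all tested genes. None fell by limma (0 at an unadjusted p under 0.05 as well, against 14.1% of all tested genes). Itgb3, whose product joins alphav in a receptor for vitronectin, fibronectin and osteopontin, had 27.12, 27.66 and 27.31 FPKM in Tdo2high MFs CM libraries, against 23.23, 22.49 and 23.38 FPKM in Control CM libraries. Both groups were tight and the gap between them was several times their spread, with a log2 fold change of 0.24 ± 0.03 (SE, limma adjusted p = 0.00205). Itgb5, the other abundant partner of alphav, averaged 35.9 ± 1.22 FPKM with Tdo2high MFs CM and 37.6 ± 1.1 FPKM with Control CM and did not pass (-0.06, 95% interval -0.14 to 0.01). Itgb3 thus stood at 0.728, 0.793 and 0.769 of the Itgb5 level in Tdo2high MFs CM libraries, against 0.631, 0.607 and 0.602 in Control CM libraries. Itgb6 and Itgb8, further partners of alphav, did not exceed 0.02 FPKM.

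Itgb2 encodes the beta2 chain of leukocyte integrins and was the second most abundant beta chain in these carcinoma cells. It had 80.46, 82.76 and 81.15 FPKM in Tdo2high MFs CM libraries, against 66.32, 67.22 and 74.33 FPKM in Control CM libraries. Control CM replicate 3 stood apart from its group, yet below every Tdo2high MFs CM library, and the log2 fold change was 0.23 ± 0.04 (SE, limma adjusted p = 0.00987). Without a filter on low values the call ended at limma adjusted p = 0.0533. Its partner chain Itgam was at or under 0.03 FPKM. The partner chains Itgal and Itgax were searched for by symbol and were not among the genes that matched. Any further partner chain of beta2 was not analysed here. The myeloid markers Laptm5, Csf1r and Lyz2 did not exceed 0.02, 0.03 and 0.10 FPKM. Of 8 listed myeloid markers, 6 were in the table, only 2 were tested and none passed by limma, against 7.41% of all tested genes. The summed level of the 6 ran from 9.94 to 11.5 FPKM with Tdo2high MFs CM and from 8.07 to 10.4 FPKM with Control CM. Cd14 had the larger part of that sum, at means of 8.82 FPKM with Tdo2high MFs CM and 6.997 FPKM with Control CM (limma adjusted p = 0.096). The other beta chain best known from leukocytes, Itgb7, averaged 32.4 ± 2.49 FPKM with Tdo2high MFs CM and 32.3 ± 1.22 FPKM with Control CM. Itgb4, the hemidesmosome chain, averaged 19.1 FPKM with Tdo2high MFs CM and 19.5 FPKM with Control CM, and neither passed.

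Among secreted glycoproteins, 4 of 7 were tested. Npnt rose, Fn1 and Sparc fell and Thbs1 did not pass, against 3.35% higher and 4.06% lower among all tested genes. Fibronectin links cells to collagen and is bound by several of the integrins above. Fn1 had 263.29, 258.58 and 253.97 FPKM in Tdo2high MFs CM libraries, against 308.09, 306.28 and 332.14 FPKM in Control CM libraries. The groups lay far apart, with a log2 fold change of -0.29 ± 0.04 (SE, limma adjusted p = 0.00137). Npnt stood at 0.165, 0.172 and 0.163 of the Fn1 level in Tdo2high MFs CM libraries, against 0.104, 0.0979 and 0.0953 in Control CM libraries. Fn1 lies on chromosome 1 from 71585473 to 71653280.

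Sparc, a collagen-binding matricellular protein, was the most abundant of all 81 genes. It had 389.37, 394.44 and 387.44 FPKM in Tdo2high MFs CM libraries, against 442.50, 445.15 and 438.42 FPKM in Control CM libraries. Spread within each group was small, and the log2 fold change was -0.18 ± 0.03 (SE, limma adjusted p = 0.00371). Thrombospondin 1 (Thbs1), a regulator of TGF-beta activation and angiogenesis, averaged 275.8 ± 5.14 FPKM with Tdo2high MFs CM and 265.0 ± 5.61 FPKM with Control CM and did not pass (0.06, 95% interval -0.01 to 0.12). Tenascin C (Tnc) and fibrillin 1 (Fbn1) did not exceed 0.30 and 0.57 FPKM.

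Decorin is a small proteoglycan that binds collagen fibrils. Dcn had 11.85, 10.75 and 9.99 FPKM in Tdo2high MFs CM libraries, against 16.06, 15.03 and 15.48 FPKM in Control CM libraries. This was the largest fall of the 39 genes, with a log2 fold change of -0.48 ± 0.06 (SE, 95% interval -0.61 to -0.35, limma adjusted p = 0.00114). Dcn lies on chromosome 10 from 97479500 to 97518163. Perlecan (Hspg2), the heparan sulfate proteoglycan of basement membranes, averaged 95.5 ± 1.01 FPKM with Tdo2high MFs CM and 103.1 ± 4.78 FPKM with Control CM and did not pass (-0.11, limma adjusted p = 0.0894). Biglycan (Bgn), the closest relative of decorin, did not exceed 0.14 FPKM.

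Dcn is also a fibroblast marker. Of 12 listed fibroblast markers, 9 were in the table and 4 were tested. Pdgfra rose (0.17, limma adjusted p = 0.00518), Dcn and Fap fell (Fap -0.31, limma adjusted p = 0.0385) and Pdgfrb did not pass. For comparison with these and the marker lists below, 3.35% of all tested genes rose, 4.06% fell and 7.41% passed in either direction. The summed level of the 9 ran from 83.5 to 86.0 FPKM with Tdo2high MFs CM and from 84.1 to 86.7 FPKM with Control CM. The fibroblast collagens Col1a1 and Col1a2 did not exceed 0.12 and 0.01 FPKM, and Lum, Tagln and Acta2 did not exceed 0.03, 0.07 and 0.08 FPKM. Of 7 listed endothelial markers, 5 were in the table, 2 were tested and none passed by limma. The 5 summed to 61.0 to 62.0 FPKM with Tdo2high MFs CM and 63.4 to 64.0 FPKM with Control CM. Eng, at means of 52.9 FPKM with Tdo2high MFs CM and 55.2 FPKM with Control CM, made up most of these sums. Pecam1, Cdh5 and Tek did not exceed 0.11, 0.03 and 0.04 FPKM. Lymphocyte and mammary basal markers in the table did not reach the filter. Of 5 listed luminal markers, 4 were in the table, 2 were tested and none passed.

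Of 4 tested collagens of basement membranes, 0 passed by limma and 2 had an unadjusted p under 0.05 (Col4a5 lower, Col18a1 higher). At that threshold 14.1% of all tested genes were lower, and the share that were higher was not computed. Col4a1 and Col4a2, the chains of the common type IV collagen, are neighbours on chromosome 8. Col4a1 averaged 165.2 ± 2.42 FPKM with Tdo2high MFs CM and 168.5 ± 0.423 FPKM with Control CM, and Col4a2 averaged 111.0 ± 3.24 FPKM with Tdo2high MFs CM and 110.8 ± 1.61 FPKM with Control CM. The 95% intervals of their log2 fold changes were -0.08 to 0.03 and -0.06 to 0.07. Col4a5 (-0.09) and Col18a1 (0.07), the source of endostatin, showed no overlap of the groups without passing, at limma adjusted p = 0.107 and 0.145. The groups did not overlap for Col4a1 either, by a narrow gap. Its highest value with Tdo2high MFs CM was 167.87 FPKM and its lowest with Control CM 168.09 FPKM. Col18a1 had 69.31, 68.57 and 70.09 FPKM in Tdo2high MFs CM libraries, against 65.91, 65.88 and 66.43 FPKM in Control CM libraries. It passed only after correction for GC content and length (0.14, limma adjusted p = 0.00899).

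Fibrillar collagens form the fibres of interstitial matrix, and of 8 in the table only Col5a1 and Col24a1 were tested. Neither passed by limma, and 1 (Col5a1) was lower at an unadjusted p under 0.05, as were 14.1% of all tested genes. Col5a1, which starts fibril assembly, had 69.07, 71.90 and 70.59 FPKM in Tdo2high MFs CM libraries, against 75.33, 74.41 and 76.43 FPKM in Control CM libraries. The groups did not overlap, with a log2 fold change of -0.10 (95% interval -0.16 to -0.03, limma adjusted p = 0.0697), and the gene passed under quantile normalization (0.0471). Corrected for GC content and length it stood at -0.03 (limma adjusted p = 0.577). The other 6 fibrillar collagens in the table did not exceed 0.56 FPKM. The crosslinking oxidases Lox and Loxl2, which join collagen fibres, stayed at or under 0.04 and 0.66 FPKM.

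Of the other collagens, 7 of 21 were tested, 1 rose and 1 fell, against 3.35% and 4.06% of all tested genes. Col12a1, a fibril-associated collagen, had 23.66, 23.67 and 23.31 FPKM in Tdo2high MFs CM libraries, against 20.77, 20.47 and 20.25 FPKM in Control CM libraries. Spread in both groups was small, and the log2 fold change was 0.19 ± 0.03 (SE, limma adjusted p = 0.00701). Col8a1, a short-chain network collagen, had 23.90, 26.68 and 24.88 FPKM in Tdo2high MFs CM libraries, against 30.69, 29.36 and 30.23 FPKM in Control CM libraries. All Tdo2high MFs CM values were lower, with a log2 fold change of -0.25 ± 0.04 (SE, limma adjusted p = 0.00748). Col16a1, the most abundant of these collagens and like Col12a1 associated with fibrils, averaged 92.2 ± 2.81 FPKM with Tdo2high MFs CM and 100.04 ± 3.48 FPKM with Control CM and did not pass (-0.12, limma adjusted p = 0.0697; corrected for GC content and length, -0.04). Col6a1 averaged 50.5 FPKM with either medium, while its partner Col6a2 stayed near the filter and Col6a3 had 0.10, 0.14 and 0.10 FPKM in Tdo2high MFs CM libraries, against 0.27, 0.31 and 0.34 FPKM in Control CM libraries. Col6a3 was below the filter, and with no filter it was called lower (-0.23, limma adjusted p = 0.0165).

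Laminins are trimers of an alpha, a beta and a gamma chain. None of the 6 tested chains passed by limma, and 3 were lower at an unadjusted p under 0.05. Of all tested genes, 14.1% were lower at that threshold. All 6 log2 fold changes were below 0, as were 6095 of all 10804 tested genes. Their median was -0.09, against -0.01 for all tested genes. The most abundant chains were Lamb1, at 156.9 ± 2.38 FPKM with Tdo2high MFs CM and 157.8 ± 3.16 FPKM with Control CM, Lama5 and Lamc1. Lama5 averaged 130.5 ± 3.02 FPKM with Tdo2high MFs CM and 140.4 ± 4.24 FPKM with Control CM, and Lamc1 97.6 ± 2.69 FPKM with Tdo2high MFs CM and 102.9 ± 4.49 FPKM with Control CM. Together these chains make up laminin-511. Lama5 had the smallest adjusted p of the chains (-0.10, 95% interval -0.17 to -0.03, limma adjusted p = 0.0739). With the correction for GC content and transcript length the median of the 6 was -0.04 and 5 were below 0, and Lama5 stood at -0.03 and Hspg2 at -0.03. The other chains of the table, Lama2, Lama3 and Lamc3, did not exceed 0.12 FPKM.

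Matrix and integrin transcripts are long, at a median of 5784 bases for the longest annotated transcript, against 3427 bases for all tested genes. The 1529 tested genes of 6 kb or more had a median log2 fold change of -0.01, and the 16 matrix and integrin genes among them one of -0.07. Summed by library, the 81 genes held 3013, 3017 and 2979 FPKM with Tdo2high MFs CM, against 3130.1, 3105 and 3201 FPKM with Control CM. Fn1 and Sparc have a large share of that sum.

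Of the 42 genes that were not tested, 21 stayed at or under 0.1 FPKM in every library and none exceeded 1.03 FPKM. The untested genes include Col1a1, the main fibrillar collagen of connective tissue, at or under 0.12 FPKM. The cartilage collagen Col2a1 is another, at or under 0.01 FPKM. Rounding to 2 decimals limits what these values can show.

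Genes around the matrix were read from 4 lists of related genes, also chosen with earlier results of these data known. Of 18 tested genes for collagen synthesis and processing, 7 fell (38.9%, against 4.06% of all tested genes) and none rose by limma. At an unadjusted p under 0.05, 10 were lower (55.6%, against 14.1% of all tested genes) and 0 higher, with no share computed for higher genes. Their median log2 fold change was -0.11, against -0.01 for all tested genes. P4ha2, a chain of the prolyl hydroxylase that stabilises the triple helix, averaged 8.90 ± 0.349 FPKM with Tdo2high MFs CM and 10.98 ± 0.941 FPKM with Control CM. Pcolce2, an enhancer of procollagen cleavage, averaged 8.93 ± 0.281 FPKM with Tdo2high MFs CM and 10.9 ± 0.511 FPKM with Control CM. Plod1, a lysyl hydroxylase, averaged 25.8 ± 0.429 FPKM with Tdo2high MFs CM and 29.9 ± 0.221 FPKM with Control CM. For the procollagen protease Adamts14 the means were 16.6 ± 0.525 FPKM with Tdo2high MFs CM and 19.0 ± 0.959 FPKM with Control CM. The other 3 that fell were P4ha1 (-0.16), the collagen chaperone Serpinh1 (-0.17) and Pcolce (-0.12). Ppib and P4hb, the most abundant of the list, did not pass (0.03 and -0.10). The count of 7 ran from 2 to 6 when 1 library was left out, and calls of Plod1 and Pcolce2 alone held in each alternative tried.

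Of 22 tested other matrix genes, 3 rose (13.6%, against 3.35% of all tested genes) and 5 fell (22.7%, against 4.06%), with a median log2 fold change of 0.02, against -0.01 for all tested genes. Mgp, an inhibitor of calcification, averaged 36.2 ± 0.722 FPKM with Tdo2high MFs CM and 25.3 ± 0.0493 FPKM with Control CM (0.50 ± 0.03, limma adjusted p = 1.09e-05). Tnxb also rose (0.29), from a low level, and its call ended in 7 of 15 alternatives, every omission of a library among them; its limma adjusted p reached 0.124, and a pseudocount of 0.1 moved the value to 0.50. Spp1, which encodes the RGD ligand osteopontin and was the most abundant of the list, averaged 408.7 ± 10.9 FPKM with Tdo2high MFs CM and 490.5 ± 11.9 FPKM with Control CM (-0.26, limma adjusted p = 0.00124). Agrn, the basement membrane proteoglycan agrin, averaged 127.3 ± 0.506 FPKM with Tdo2high MFs CM and 140.2 ± 2.21 FPKM with Control CM. Its fall (-0.14) did not pass after the correction for GC content and length (-0.08, limma adjusted p = 0.072) or without an intensity trend (limma adjusted p = 0.0539). The small proteoglycan Ogn fell as well (-0.28), a call that ended with no filter and without Tdo2high MFs CM replicate 3 or Control CM replicate 1 (limma adjusted p up to 0.0652). The others that passed were Ecm1, which rose (0.18), and Fbln2 (-0.26) and Ccn1 (-0.21), which fell.

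Among 30 tested genes of focal adhesions and integrin signalling, 3 fell and 1 rose. The share that rose, 3.33%, was near the 3.35% of all tested genes, and 10% fell, against 4.06%. In either direction 13.3% passed, against 7.41%. At an unadjusted limma p under 0.05, 10 were lower (33.3%, against 14.1% of all tested genes) and 4 higher. The share of all tested genes that were higher at that threshold was not computed. Zyx, the focal adhesion protein zyxin, averaged 170.1 ± 2.37 FPKM with Tdo2high MFs CM and 193.4 ± 7.18 FPKM with Control CM (-0.18, limma adjusted p = 0.00885). The falls of Vasp and Tns2 (both -0.13) and the rise of the tensin Tns1 (0.27) each ended in 8 or 9 alternatives, with limma adjusted p up to 0.144, 0.185 and 0.104, and Tns2 stood at -0.07 once corrected for GC content and length. Flna, the most abundant of the list, did not pass (-0.08). Of 14 tested matrix receptors outside the integrin family, 1 rose and none fell by limma. At an unadjusted limma p under 0.05, 1 was lower (7.14%, against 14.1% of all tested genes) and 3 were higher, again without a computed share of all tested genes. The share that passed by adjusted p, 7.14%, was near the 7.41% of all tested genes. As a share that rose it rests on 1 gene and stands against 3.35%. The gene that rose was Sdc4, a syndecan that acts beside integrins in fibronectin adhesion, at 354.9 ± 8.32 FPKM with Tdo2high MFs CM and 316.0 ± 9.37 FPKM with Control CM (0.17, limma adjusted p = 0.0133). Without Tdo2high MFs CM replicate 2 or 3, with no filter or without an intensity trend it did not pass (limma adjusted p up to 0.0605). Rpsa, the most abundant, did not pass (-0.05).

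**Figure D5:**
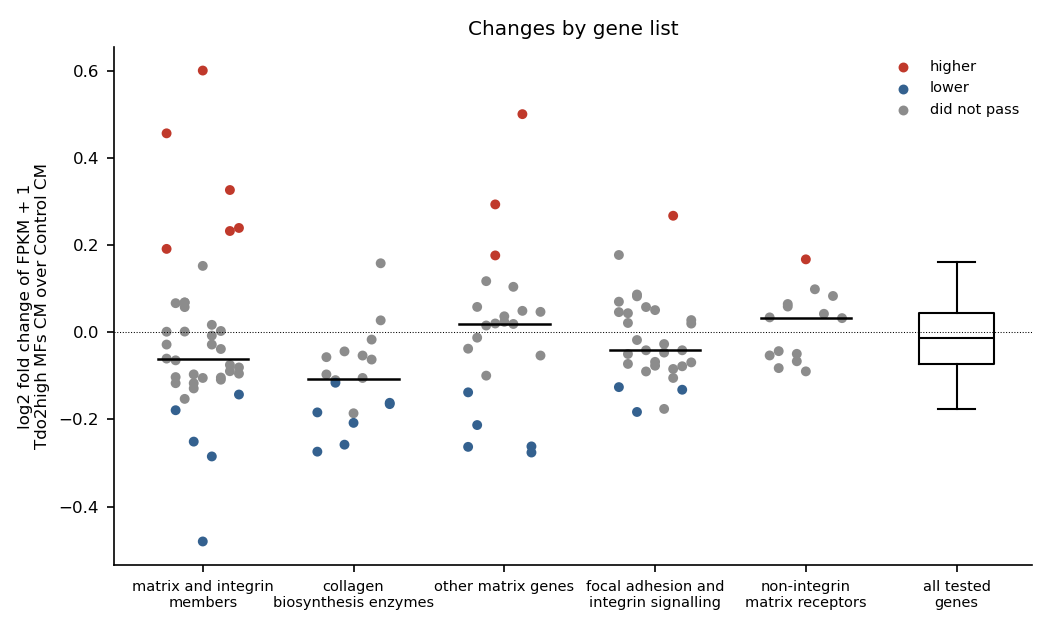
Log2 fold change of FPKM + 1 (y), Tdo2high MFs CM over Control CM, of each tested gene in the matrix and integrin set and the 4 related lists; black lines are medians, and the box shows the median, the quartiles and the 5th and 95th percentiles of all tested genes. The collagen biosynthesis list has its median at -0.11, and Itga8, Mgp and Npnt are the highest points.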

How the data were processed

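Polyadenylated RNA of 4T1-LM3 cells was copied with random hexamers and sequenced at BGI, per the labels' protocols. The authors deposited 1 table of FPKM per gene and library, rounded to 2 decimals, per the file headers. The build was GRCm38, per the submitters' processing notes; which aligner, quantifier, annotation and strand setting were used is not given in the sources used here. Read depth is unknown, and the FPKM of a library depend on its most abundant genes. Samples were grouped by title. Genes that reached 1 FPKM in 3 or more of the 6 libraries were tested as log2(FPKM + 1) with limma 3.58.1 in R 4.3.3 (eBayes with intensity trend, two-sided, Benjamini-Hochberg over 10804 genes, threshold 0.05, 95% intervals of the moderated fit). An exact two-sided permutation test of 3 against 3 cannot go below 0.1, so none is given. The test was tried on simulated data.

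Genes were named by a rule: each matrix or integrin gene that passed, the 3 most abundant tested ones of each role, those nearest the filter, partner subunits, and in each related list up to 4 that passed with the largest fold change and the 2 of highest level; other names were chosen after their values were seen. Members, lists and rule were chosen with earlier results of these data known. Positions and promoters come from RefSeq (GRCm38.p6, matched by NCBI gene number); transcript length and GC content come from GENCODE, for 10633 (98.4%) of the tested genes. Alternative settings changed the pseudocount, the filter, the scaling or the variance model, added a replicate block, and tried leaving out each library; a correction for GC content and length was added after the data were seen. Figures were drawn with matplotlib 3.10.9.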

Additional observations from a re-analysis of the deposited data

How the results depend on the processing

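All 11 matrix and integrin genes that passed kept their direction in each alternative that was run for them, and 8 of them kept their call; the exceptions were Itga1, Itga3 and Itgb2. Of the 28 that did not pass, 2 passed in 1 alternative each (Col18a1 and Col5a1). The number of matrix and integrin genes higher ran from 4 to 7 and lower from 4 to 6. The titles number the samples 1 to 3 in both groups. Same-numbered samples did not deviate together (r of deviations from group means across genes -0.023, -0.0305 and 0.018), so the number is taken as a name only; with the replicate block the counts were 6 higher and 5 lower among matrix and integrin genes, 622 of all tested genes, and 0 higher in the focal adhesion list.

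Over all tested genes, 362 were higher and 439 lower (45.2% higher). Median-of-ratios scaling gave 54.0% higher, TPM 38.8% and the GC and length correction 56.0%, while matrix and integrin counts stayed at 6 and 5 under the first pair of scalings. The count of 801 changed genes was 394 with no filter and 525 without an intensity trend; it ran from 395 to 559 without 1 library. With no filter and without an intensity trend, collagen biosynthesis enzymes lower counted 3 in each case and focal adhesion genes lower 1; matrix receptors higher counted 0 in each. Focal adhesion genes higher counted 0 with no filter and with at least 5 FPKM. The filter of 5 FPKM left Tns1 untested, since it did not exceed 3.03 FPKM, so that 0 is not a retest of its call. The GC and length correction gave 1 focal adhesion gene lower and 2 matrix receptors higher. Without 1 library, these counts ran from 2 to 6 for collagen biosynthesis lower, 1 to 2 for focal adhesion lower, and 0 to 1 for focal adhesion higher and for matrix receptors higher.

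Log2 fold changes near 0 that did not pass changed sign, never with a call. Under TPM these were Itgb7, Col6a1 and Col4a2 (-0.01 each), under quantile normalization Col6a1 (0.00) and Col4a2 (-0.02), under the median of ratios Lamb1 (0.00), and with the GC and length correction Col4a1 (0.02), Itgb4 (0.04) and Lamb1 (0.02). Without 1 library the values ran from -0.03 to 0.06 for Itgb7, -0.06 to 0.01 for Itgb4, -0.04 to 0.03 for Col6a1, -0.02 to 0.02 for Col4a2, -0.02 to 0.01 for Lamb1 and -0.01 to 0.05 for Itgav. The cause was not tested. Unknown depth and 3 libraries per group limit what low genes can show.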
